A study of Mus musculus with 10 samples.

Results

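The genes described here are 34 mouse genes known from Schwann cell precursors and satellite glia, the glial cells of peripheral nerves and ganglia. They were listed by name and looked up by symbol among the 55414 gene identifiers counted. All 34 were found, and all 34 passed the filter on low counts that left 18005 genes for testing. RNA was sequenced from whole trigeminal ganglia, the sensory ganglia of the face, of C57Bl6 mouse embryos at E13.5. The knockout group holds 5 libraries of genotype Prdm12-/-; Sox10 Venus+ (16, 29, 42, 49 and 50), and the wild-type group holds 5 libraries of genotype Prdm12+/+; Sox10 Venus+ (22, 24, 32, 35 and 45). Both groups thus carry the Sox10 Venus reporter. The labels do not say how that reporter was built or which Sox10 sequence it holds, so reads from reporter and endogenous Sox10 transcripts cannot be told apart. The labels describe the Prdm12 loss as constitutive and name no cell sort, so neurons, glia, vessels and adjoining tissue all contributed RNA. They leave unsaid whether any 2 libraries share an embryo, and the p-values therefore rest on a spread between samples that may be technical. Titles of the 2 groups begin with different letters, and whatever the letter marks cannot be told apart from genotype. The question was how much glial RNA each library held, how mature its glial genes were, and whether the answer changed without knockout 29. That library was singled out because its Sox10 was the highest, so its Sox10 values are a description.

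Schwann cell precursors arise from the neural crest and travel along growing nerves. They depend on Sox10 and on neuregulin signals from axons received through Erbb3, and they pass through an immature stage before some of them switch on Pou3f1, then Egr2, and then the myelin genes. In ganglia, related crest cells wrap neuron cell bodies and become satellite glia, which come to express Apoe, S100b and Fabp7. Prdm12 itself is a neuronal gene, a chromatin regulator needed for pain-sensing neurons, and it is not known as a glial gene.

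The deposited counts summed to 27308327 to 33556002 per library in 8 libraries, to 13603690 in knockout 29 and to 3258008 in knockout 49. Values are given as CPM, counts scaled to a common library total with edgeR's TMM factors. A count of 3 amounts to 0.869 CPM for knockout 49, 0.236 CPM for knockout 29 and 0.0889 to 0.107 CPM for the remaining 8, and these floors cover counting error only. Prdm12 was at 8.74 to 42.7 CPM among knockouts, below all 5 wild-type values of 74.3 to 264 CPM (edgeR quasi-likelihood test with Benjamini-Hochberg adjustment, log2 fold change -3.32, SE 0.49, adjusted p = 0.0156). Neuronal markers were present in every library and summed to 5008 to 13420 CPM in knockout and 6740 to 12520 CPM in wild type. Without knockout 29 the highest knockout sum was 7781 CPM. Of these 8 markers 7 had negative estimates (median log2 fold change -0.44), and none passed the adjusted edgeR test. The 5 nociceptor markers summed to 34.6 to 68.8 CPM in knockout and 722 to 1864 CPM in wild type. All 5 passed that test as lower, beside 0.372% of all genes. The part of neuronal RNA in the glial CPM was not tested. The glial genes Cdh19 and Erbb3 were also present in every library. Both groups thus held neuronal and glial RNA, but these genes do not tell the trigeminal ganglion from other peripheral ganglia. Knockout 29 differed from the other libraries in how levels depended on base composition. Its deviation from the mean of the libraries rose with the GC content of the longest annotated transcript (r = 0.58 across 17947 genes, which are not independent replicates), against r between -0.27 and 0.03 in the other 9 libraries. Its median deviation was -0.83 on the log2 scale in the lowest of 10 equal bins of genes by GC content and 0.64 in the highest.

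The members lie at both ends of this range of base composition, and 90 bases of coding sequence from 4 of them show it. Sox10 and Foxd3 are rich in G and C and were the members with the largest excess in knockout 29, whereas Fabp7 and Zeb2 are poor in G and C and are the genes of highest level in their role groups besides Sox10. The stretches come from the GENCODE M21 transcripts on GRCm38 and are written 5′ to 3′ on the coding strand, with every G and C in capitals. Counted from the first base of the start codon, they span bases 277 to 366 of Sox10 (chromosome 15), 331 to 420 of Foxd3 (chromosome 4), 154 to 243 of Fabp7 (chromosome 10) and 328 to 417 of Zeb2 (chromosome 2).
Sox10: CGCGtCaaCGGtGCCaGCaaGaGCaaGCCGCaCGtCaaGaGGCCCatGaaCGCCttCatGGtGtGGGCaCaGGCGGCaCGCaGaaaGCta
Foxd3: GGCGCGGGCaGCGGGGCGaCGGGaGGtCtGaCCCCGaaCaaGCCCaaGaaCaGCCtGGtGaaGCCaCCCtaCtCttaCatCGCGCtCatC
Fabp7: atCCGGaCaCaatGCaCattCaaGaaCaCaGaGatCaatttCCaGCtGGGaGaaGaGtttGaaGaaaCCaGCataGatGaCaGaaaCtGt
Zeb2: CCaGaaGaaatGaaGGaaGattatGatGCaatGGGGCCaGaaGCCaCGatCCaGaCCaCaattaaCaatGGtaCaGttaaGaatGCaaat
The share of G and C in these stretches is 62.2% for Sox10, 65.6% for Foxd3, 42.2% for Fabp7 and 41.1% for Zeb2. It is 61.8%, 65.1%, 42.6% and 40.6% over their whole transcripts.

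No single direction ran through the 34 genes. By edgeR, none was called higher in the knockout libraries (DESeq2 called Apoe) and 1, Serpine2, was called lower at an adjusted p under 0.05, where 0.0944% and 0.372% of the 18005 genes tested were called higher and lower. At an unadjusted p under 0.05, 8 of the 34 passed, 4 higher (Egr2, Mal, Apoe and Nes) and 4 lower (Zeb2, Fabp7, Serpine2 and Vim), beside 13.1% of all genes (6.4% higher and 6.73% lower). The log2 fold change, knockout over wild type, was positive for 20 members and negative for 14, with a median of 0.20 beside -0.03 over all genes tested. In 2 members, Serpine2 and Zeb2, every knockout library lay below every wild-type library, and in none did every knockout library lie above, beside 2.92% and 1.29% of all genes (4.21% in either direction). Without knockout 29 the count below was 3 (Serpine2, Zeb2 and Vim), beside 4.63%, and that above was again 0, beside 2.0% (6.64% in either direction). In bulk tissue, fewer cells of a type and less RNA per cell cannot be told apart.

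**Figure D1:**
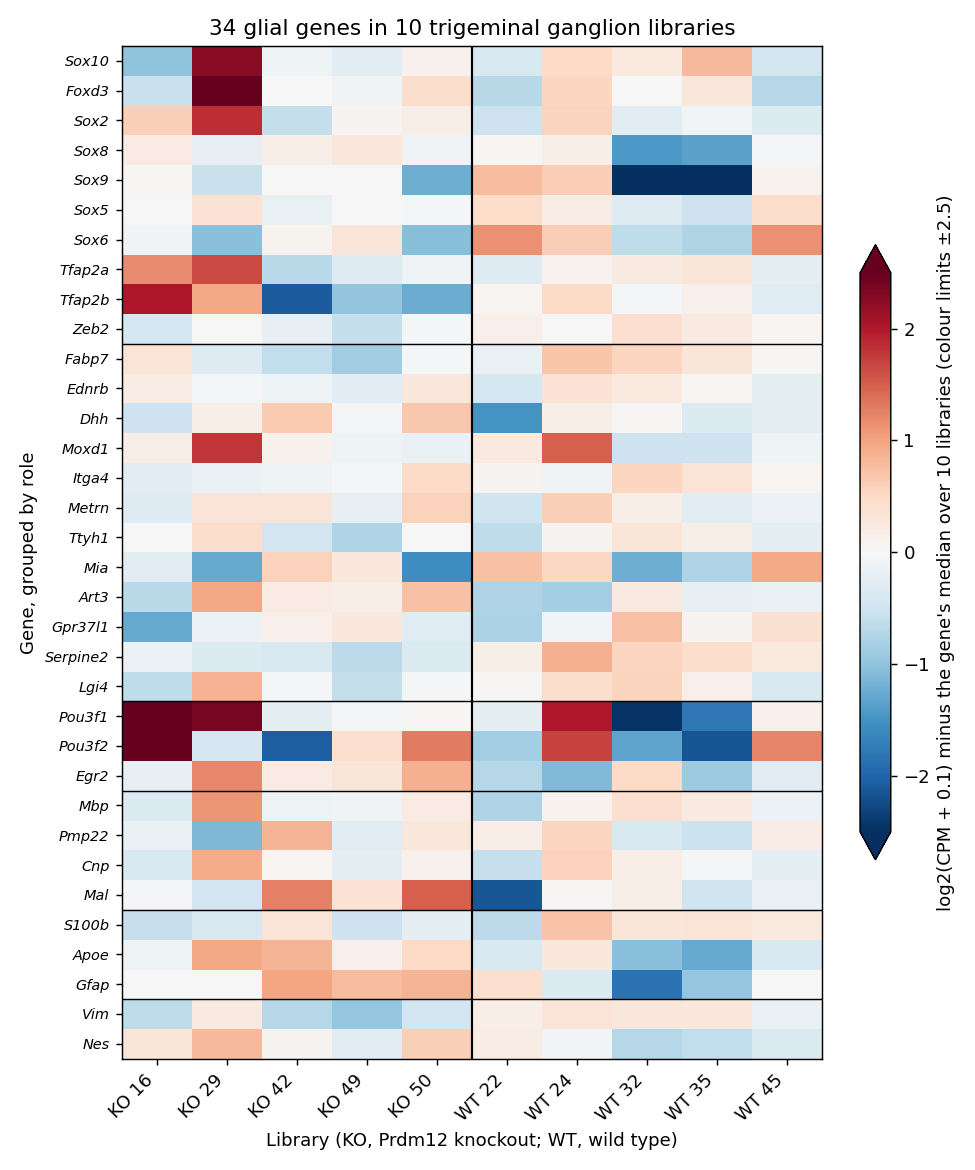
Level of each of the 34 genes in each of the 10 libraries, as log2 CPM (with a small constant added) minus the gene's median over the libraries, with genes in rows by role and libraries in columns by group (KO, knockout, and WT, wild type). The knockout 29 column is high for Sox10, Foxd3, Sox2 and Moxd1 and low for Pmp22, and wild types 32 and 35 are low for Sox9.

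The transcription factors of neural crest and glial identity were led by Sox10, which maintains peripheral glia at every stage. Sox10 was at 390.1, 3764, 726, 647 and 844 CPM in knockout libraries 16, 29, 42, 49 and 50, and at 599, 1110, 933, 1375 and 573 CPM in wild-type libraries 22, 24, 32, 35 and 45. Knockout 29 was at 5.77 times the mean of the other knockout libraries, and those 4 overlapped the wild-type range. The group means were 1274 ± 1402 CPM in knockout and 918 ± 342 CPM in wild type (SD, n = 5), and the difference did not pass the test (log2 fold change 0.47, SE 0.56, adjusted p = 0.727, edgeR). Without knockout 29 the knockout mean was 652 ± 192 CPM (SD, n = 4) and the estimate changed sign (log2 fold change -0.46, SE 0.32, adjusted p = 0.561, edgeR). The direction for Sox10 therefore rested on 1 library, and neither value passed the test. With offsets that remove each library's trend over GC content, Sox10 was at 2321 CPM in knockout 29 and the log2 fold change was 0.06. The excess of knockout 29 over the median of the other knockout libraries was 2.46 on the log2 scale before this adjustment and 1.67 after it.

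Several genes beside Sox10 on chromosome 15 were also high in knockout 29 and low in knockout 16. Polr2f, which encodes a shared subunit of the RNA polymerases and is the nearest protein-coding neighbour on one side in the RefSeq order, had 2874 CPM in knockout 29, 429 to 738 CPM among the other knockouts and 705 to 1351 CPM in wild type. Pick1, the nearest on the other side, had 1235 CPM in knockout 29, against 334 to 683 CPM among the other knockouts and 405 to 1260 CPM in wild type, where library 35 exceeded knockout 29. Baiap2l2 had 238 CPM in knockout 29, 28.4 to 86.2 CPM among the other knockouts and 49.5 to 88.5 CPM in wild type. Knockout 16, the library with the lowest Sox10, was also the lowest of the 10 for Polr2f, Pick1, Baiap2l2, Micall1 and Pla2g6. Among wild-type libraries, number 35 was the highest for Sox10, Pick1, Baiap2l2, Micall1, Slc16a8 and Pla2g6. Wild type 24, the next highest for Sox10, was instead the lowest wild type for Pick1, Slc16a8 and Pla2g6, at 405, 76.9 and 77.0 CPM. Farther out on the Polr2f side the levels were flat, with Eif3l at 186 to 246 CPM and Ankrd54 at 25.1 to 35.2 CPM across all 10 libraries. On the Pick1 side Pla2g6 spanned 67.7 to 165 CPM and Maff 5.66 to 9.68 CPM. Both were highest in knockout 29 and lowest in knockout 16. These CPM are not adjusted for GC content, which was 57.6% for Maff, 58.3% for Pla2g6, 63.3% for Slc16a8 and 64.0% for Baiap2l2. It was 58.5% for Ankrd54, 52.9% for Polr2f and 52.1% for Pick1. In knockout 29 all genes with 55.4% to 57.8% GC lay at a median of 0.46 above the other knockouts on the log2 scale. Genes richer in GC lay at 0.65. The parts of GC content and of the reporter in these values were not tested.

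**Figure D2:**
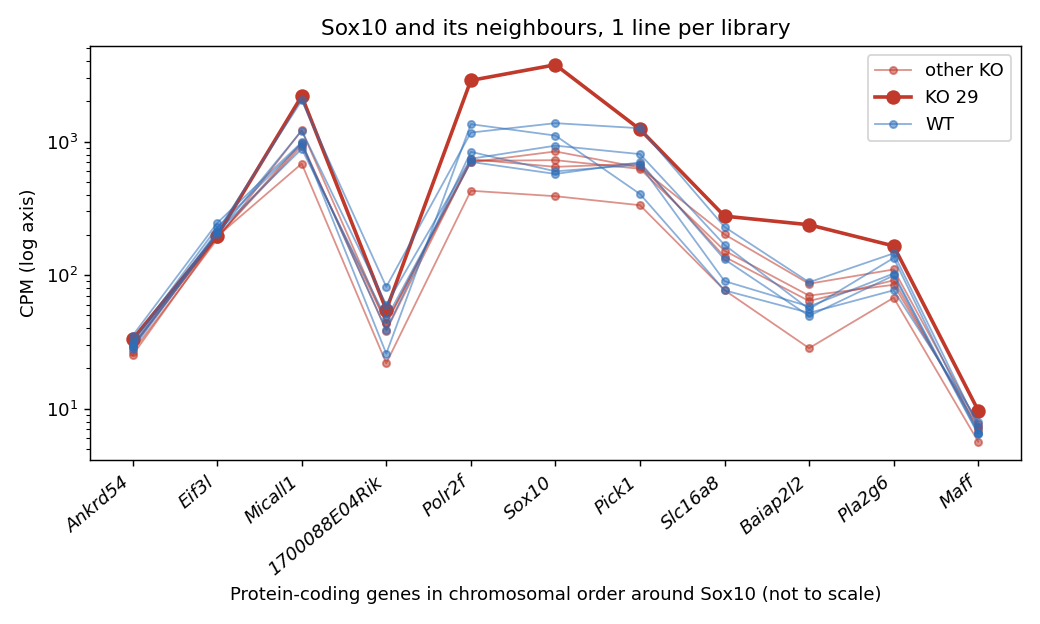
CPM on a log axis of Sox10 and the 5 nearest protein-coding genes on each side of it, in RefSeq order, with 1 line per library. Knockout 29 lies highest at Sox10, Polr2f, Micall1, Slc16a8, Baiap2l2, Pla2g6 and Maff. All libraries meet at Eif3l and Ankrd54, which are both on the Polr2f side. The values are not adjusted for GC content.

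Over the 10 libraries the genes whose log2 CPM was most like that of Sox10 were Atf5 (Pearson r = 0.96), a gene known only by the identifier ENSMUSG00000095742 (0.95), Polr2f (0.95), Nr4a1 (0.95) and Fam89a (0.95). Foxd3 ranked 10th of all genes tested, with r = 0.94. In all 5 of those closest genes knockout 29 was the highest library, so these correlations share that 1 point and its depth and base composition. Over the 9 libraries without knockout 29 the 5 closest genes were others, Nol3 (0.91), Rab3d (0.90), Ispd (0.90), Dusp5 (0.90) and Zfp747 (0.90), and Foxd3 ranked 93rd, with r = 0.80.

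Foxd3, a forkhead factor of the neural crest and its glial descendants, followed the pattern of Sox10. It was at 10.5, 93.6, 15.7, 14.5 and 21.1 CPM in knockout libraries 16, 29, 42, 49 and 50, and at 9.54, 22.4, 15.3, 18.8 and 9.44 CPM in wild-type libraries 22, 24, 32, 35 and 45. Knockout 29 was 6.06 times the mean of the other knockout libraries, which overlapped wild type. The log2 fold change of Foxd3 was 1.04 (SE 0.57) with knockout 29 and 0.06 (SE 0.31) without it, and neither passed the test. Sox2, a factor of multipotent and immature glia, showed the same form, at 131 CPM in knockout 29, 23.7 to 54.2 CPM in the other knockout libraries and 25.3 to 53.3 CPM in wild type.

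Zeb2, a repressor that lets Schwann cells mature, was at 104, 139, 121, 92.7 and 136 CPM in knockout libraries 16, 29, 42, 49 and 50, and at 152, 141, 188, 163 and 145 CPM in wild-type libraries 22, 24, 32, 35 and 45. Every knockout library lay below every wild-type library, with the highest knockout at 139 CPM and the lowest wild type at 141 CPM. The means were 118 ± 20.1 CPM and 158 ± 18.8 CPM (SD, n = 5), and the difference did not pass the adjusted test (log2 fold change -0.41, SE 0.14, adjusted p = 0.264, edgeR; adjusted p from 0.218 to 0.903 over the alternative analyses). With the GC adjustment the log2 fold change of Zeb2 was -0.09.

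Sox6, a relative of Sox5 that is also expressed in cartilage, was at 17.9, 9.21, 20.4, 24.03 and 9.09 CPM in knockout libraries 16, 29, 42, 49 and 50, and at 42.2, 29.4, 12.2, 11.3 and 42.3 CPM in wild-type libraries 22, 24, 32, 35 and 45 (log2 fold change -0.78, SE 0.43, adjusted p = 0.451, edgeR). Sox9, which crest-derived glia share with cartilage, spanned 18.9 to 44.9 CPM in knockout and 3.19 to 75.1 CPM in wild type. For both genes the low wild-type values came from libraries 32 and 35, where Sox9 was at 3.19 and 4.61 CPM. In those libraries the 6 cartilage markers summed to 233 and 255 CPM, against 999 to 1090 CPM in the other wild-type and 343 to 1318 CPM in the knockout libraries, with none of them at 0 in every library. The 8 mesenchyme markers summed to 707 and 988 CPM there, against 4311 to 6017 CPM and 2841 to 10580 CPM. Their part in the values of Sox9 and Sox6 was not tested.

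Of the remaining factors, Sox8 spanned 4.33 to 6.08 CPM in knockout and 1.80 to 5.53 CPM in wild type, and Sox5 26.2 to 38.7 and 20.9 to 41.1 CPM. Tfap2a, an early crest factor, spanned 11.1 to 55.9 and 14.3 to 21.8 CPM, with knockouts 29 and 16 above all other libraries. Tfap2b spanned 3.24 to 56.9 and 11.2 to 19.4 CPM, with knockout 16 the highest. None of the 10 factors passed the adjusted test, 6 had a positive and 4 a negative estimate, and their median log2 fold change was 0.46.

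Among the 12 genes of precursors and glial signalling, Serpine2 fell in the knockout libraries and was the 1 member called. It encodes a secreted inhibitor of serine proteases. Serpine2 was at 136, 119.9, 115, 96.7 and 119 CPM in knockout libraries 16, 29, 42, 49 and 50, and at 169, 280.0, 221, 205 and 179.6 CPM in wild-type libraries 22, 24, 32, 35 and 45. The groups did not overlap. The means were 117 ± 14.2 CPM and 211 ± 43.8 CPM (SD, n = 5), a wild-type mean 1.79 times that of knockout (log2 fold change -0.84, SE 0.16, adjusted p = 0.0446, edgeR). The adjusted p lay close to the threshold. In 17 alternative analyses the direction was the same in all 17 and the call was kept in 2, with adjusted p from 0.00141 to 0.359 over the alternative analyses. Leaving out any 1 library, knockout 29 among them, ended the call, with log2 fold changes from -0.92 to -0.68 and adjusted p from 0.0507 to 0.180.

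Fabp7, a fatty-acid-binding protein and one of the earliest marks of Schwann cell precursors, was at 654, 415, 341, 283 and 511 CPM in knockout libraries 16, 29, 42, 49 and 50, and at 457, 836, 755, 644 and 528 CPM in wild-type libraries 22, 24, 32, 35 and 45. Its groups overlapped, with knockouts 16 and 50 inside the wild-type range and the other 3 below it (log2 fold change -0.55, SE 0.25, adjusted p = 0.378, edgeR). Knockout 29 was within the spread of the other knockouts for Fabp7, at 0.928 times their mean, in contrast to its position for Sox10. With the GC adjustment Fabp7 was at 601.5 CPM in knockout 29, within the 276 to 657 CPM of the other knockouts. Its log2 difference from their median rose from -0.01 to 0.55. Ednrb, the endothelin receptor of migrating crest cells, was at 311, 263, 253, 225 and 332 CPM in knockout libraries 16, 29, 42, 49 and 50, and at 202, 352, 321, 282 and 233 CPM in wild-type libraries 22, 24, 32, 35 and 45. Its ranges overlapped throughout (log2 fold change -0.00, SE 0.18, adjusted p = 0.996, edgeR). Art3, of the ADP-ribosyltransferase family, was at 4.98, 15.6, 9.18, 8.98 and 13.3 CPM in knockout libraries 16, 29, 42, 49 and 50, and at 4.67, 4.35, 9.35, 6.93 and 7.04 CPM in wild-type libraries 22, 24, 32, 35 and 45 (log2 fold change 0.69, SE 0.32, adjusted p = 0.389, edgeR). Its groups also overlapped.

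Moxd1, a monooxygenase-like gene of crest-derived glia, was at 86.8 CPM in knockout 29 and 70.6 CPM in wild type 24, while all other libraries lay between 17.5 and 29.8 CPM. Each group thus had 1 library far above the rest. Its log2 fold change was 0.24 with knockout 29 and -0.31 without it, and 0.83 without wild type 24. Dhh, the hedgehog ligand with which Schwann cells signal to the nerve sheath, spanned 4.09 to 9.44 CPM in knockout and 2.04 to 6.62 CPM in wild type. Lgi4, a secreted factor for myelination, spanned 8.45 to 24.1 and 10.1 to 19.3 CPM with knockout 29 the highest. The integrin subunit Itga4 spanned 61.5 to 104 and 69.8 to 107 CPM, and the secreted factor Metrn 65.4 to 123 and 58.4 to 125 CPM. The membrane protein gene Ttyh1 spanned 119.6 to 272 and 129 to 248 CPM. These 6 genes overlapped between the groups and none passed the adjusted test. Mia, which cartilage also expresses, spanned 0.175 to 1.10 and 0.242 to 1.44 CPM, and the glial receptor Gpr37l1 0.237 to 0.869 and 0.367 to 1.25 CPM. Both lay near the level of a few counts in knockout 49, where the depth cannot show a difference. In the group of 12, 4 estimates were positive and 8 negative, with a median log2 fold change of -0.11.

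All 3 promyelinating transcription factors had positive estimates and none passed the test, with a median log2 fold change of 1.67. Pou3f1, which marks the step before myelination, was at 22.6, 9.60, 1.49, 1.74 and 1.82 CPM in knockout libraries 16, 29, 42, 49 and 50, and at 1.501, 7.42, 0.242, 0.444 and 1.94 CPM in wild-type libraries 22, 24, 32, 35 and 45 (log2 fold change 1.72, SE 0.98, adjusted p = 0.468, edgeR). Knockouts 16 and 29 were the 2 highest libraries and the other 3 knockouts lay inside the wild-type range. Pou3f2, a close relative that is also a gene of central neurons and progenitors, was at 77.9, 3.54, 1.07, 6.37 and 11.8 CPM in knockout libraries 16, 29, 42, 49 and 50, and at 2.60, 15.6, 1.84, 0.990 and 11.2 CPM in wild-type libraries 22, 24, 32, 35 and 45 (log2 fold change 1.67, SE 1.07, adjusted p = 0.509, edgeR). Its 2 highest values came from knockout 16 and wild type 24. The 8 central nervous system markers summed to 130.5 CPM in knockout 16 and 37.7 CPM in wild type 24, but only to 1.14 and 0.478 CPM in wild types 32 and 35. They summed to 1.99 to 32.4 CPM in the other knockouts. Wild types 32 and 35 were also the libraries with the lowest Pou3f1. Without knockout 16 the log2 fold change of Pou3f2 was -0.18 and that of Pou3f1 0.68. The part of these markers in the Pou3f1 and Pou3f2 values was not tested. Egr2, the master factor of myelination, which at this age is also a gene of boundary cap cells at the nerve roots, was at 4.71, 12.6, 6.22, 6.66 and 10.1 CPM in knockout libraries 16, 29, 42, 49 and 50, and at 3.27, 2.46, 7.59, 2.83 and 4.51 CPM in wild-type libraries 22, 24, 32, 35 and 45 (log2 fold change 0.96, SE 0.37, adjusted p = 0.307, edgeR). The groups overlapped, and the 4 boundary cap markers summed to 115 to 231 CPM in knockout and 121 to 176 CPM in wild type.

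**Figure D3:**
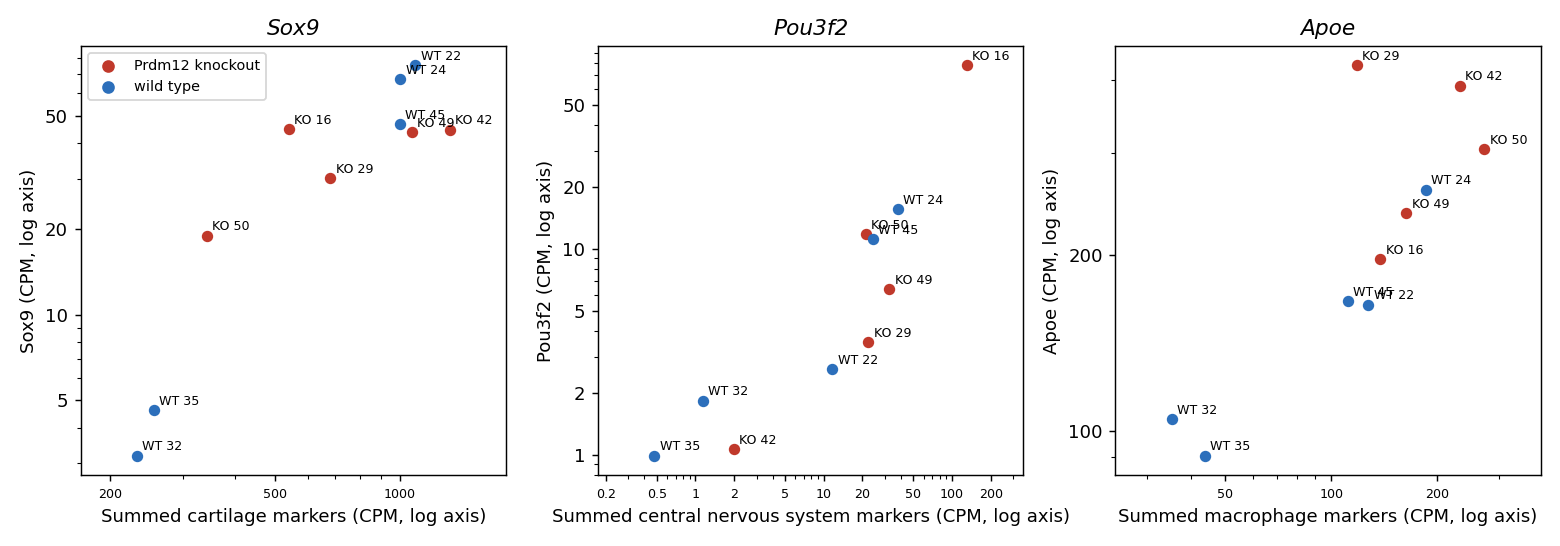
CPM of Sox9, Pou3f2 and Apoe against the summed CPM of cartilage, central nervous system and macrophage markers in the same library, both on log axes, with 1 point per library coloured by group. Wild types 32 and 35 lie at the low end of the cartilage, macrophage and central nervous system sums, and knockout 16 has the highest central nervous system sum. Knockout 29 has the highest Apoe in these values, which are not adjusted for GC content.

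The 4 myelin genes were all detected and all 4 estimates were at or above 0, with none passing the test and a median log2 fold change of 0.19. Mbp, a main protein of compact myelin, was at 45.5, 125, 53.1, 54.1 and 66.3 CPM in knockout libraries 16, 29, 42, 49 and 50, and at 34.1, 61.8, 76.6, 67.9 and 52.2 CPM in wild-type libraries 22, 24, 32, 35 and 45 (log2 fold change 0.23, SE 0.29, adjusted p = 0.744, edgeR). Cnp, a phosphodiesterase of myelin-forming glia, was at 51.0, 127, 68.7, 57.0 and 72.4 CPM in knockout libraries 16, 29, 42, 49 and 50, and at 44.7, 99.3, 75.0, 65.0 and 56.1 CPM in wild-type libraries 22, 24, 32, 35 and 45 (log2 fold change 0.15, SE 0.27, adjusted p = 0.840, edgeR). For both genes knockout 29 was the highest of the 10 libraries and the other knockouts lay within the wild-type range, and without it the estimates were -0.07 and -0.10. Pmp22, a membrane protein of peripheral myelin that mesenchyme also expresses, was at 60.8, 31.6, 123, 55.9 and 82.9 CPM in knockout libraries 16, 29, 42, 49 and 50, and at 77.0, 99.6, 52.8, 47.0 and 77.8 CPM in wild-type libraries 22, 24, 32, 35 and 45 (log2 fold change 0.00, SE 0.32, adjusted p = 0.998, edgeR). Here knockout 29 was the lowest library and knockout 42, which had the largest mesenchyme sum (10580 CPM), was the highest. Mal, a proteolipid of myelin membranes, was at 7.20, 5.27, 17.8, 9.55 and 20.9 CPM in knockout libraries 16, 29, 42, 49 and 50, and at 1.60, 7.58, 8.21, 5.22 and 6.51 CPM in wild-type libraries 22, 24, 32, 35 and 45 (log2 fold change 1.07, SE 0.47, adjusted p = 0.364, edgeR). Knockouts 42, 49 and 50 exceeded every wild-type library for Mal, and knockout 29 did not. Knockout 29 was thus the highest library for Mbp and Cnp, the lowest for Pmp22 and 8th of the 10 for Mal. It also had the lowest mesenchyme sum of the knockouts (2841 CPM), and the part of mesenchyme in the Pmp22 values was not tested.

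Of the genes of satellite and mature glia, Apoe, the lipid carrier of glia and macrophages, was at 197, 424, 391, 236 and 305 CPM in knockout libraries 16, 29, 42, 49 and 50, and at 165, 259.6, 105, 90.5 and 167 CPM in wild-type libraries 22, 24, 32, 35 and 45. Knockouts 29, 42 and 50 exceeded every wild-type library, whereas knockouts 16 and 49 overlapped the wild-type range. The means were 311 ± 97.3 CPM and 157 ± 66.8 CPM (SD, n = 5), and the difference did not pass the test (log2 fold change 0.98, SE 0.30, adjusted p = 0.215, edgeR). DESeq2 called Apoe higher, with an adjusted p of 0.0492, and over all 17 alternatives it ranged from 0.0492 to 0.719. The 6 macrophage markers summed to 118 to 272 CPM in knockout and 35.2 to 185 CPM in wild type, and the 2 lowest sums, 35.2 and 43.6 CPM in wild types 32 and 35, fell in the libraries with the lowest Apoe. Knockout 29 had the highest Apoe and, at 118 CPM, the lowest macrophage sum of the knockouts. Apoe is rich in G and C (59.5%). With the GC adjustment it was at 282 CPM in knockout 29, below 414 and 312 CPM in knockouts 42 and 50. Those 2 libraries had the largest macrophage sums, 231 and 272 CPM. All 6 markers had positive estimates and none was called, and their part in the Apoe values was not tested. S100b, a calcium-binding protein of glia, was at 7.79, 8.81, 14.7, 8.11 and 9.79 CPM in knockout libraries 16, 29, 42, 49 and 50, and at 7.34, 19.3, 14.3, 14.8 and 13.9 CPM in wild-type libraries 22, 24, 32, 35 and 45 (log2 fold change -0.49, SE 0.27, adjusted p = 0.446, edgeR). Gfap, the intermediate filament of reactive and non-myelinating glia, was at 0.622, 0.629, 1.35, 1.16 and 1.22 CPM in knockout libraries 16, 29, 42, 49 and 50, and at 0.867, 0.479, 0.104, 0.273 and 0.634 CPM in wild-type libraries 22, 24, 32, 35 and 45 (log2 fold change 1.06, SE 0.49, adjusted p = 0.384, edgeR). Both sets of ranges overlapped, and Gfap lay within a few counts of the floor in knockout 49.

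The 2 intermediate filament genes of precursors, which mesenchyme and vessels also express, pointed in opposite directions. Vim was at 1327, 2388, 1253, 1054 and 1470 CPM in knockout libraries 16, 29, 42, 49 and 50, and at 2292, 2580, 2483, 2473 and 1836 CPM in wild-type libraries 22, 24, 32, 35 and 45 (log2 fold change -0.64, SE 0.23, adjusted p = 0.290, edgeR). Knockout 29 alone reached the wild-type range, and without it the remaining 4 knockouts all lay below every wild-type library (log2 fold change -0.84, SE 0.18, adjusted p = 0.0815, edgeR). Nes was at 159, 225, 135, 107 and 195 CPM in knockout libraries 16, 29, 42, 49 and 50, and at 146, 123, 78.3, 84.2 and 101 CPM in wild-type libraries 22, 24, 32, 35 and 45 (log2 fold change 0.63, SE 0.23, adjusted p = 0.286, edgeR). Its groups overlapped, with knockouts 16, 29 and 50 above every wild-type library. The 6 endothelial markers summed to 335 to 853 CPM in knockout and 176 to 411 CPM in wild type, and their part in the Nes values was not tested.

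**Figure D4:**
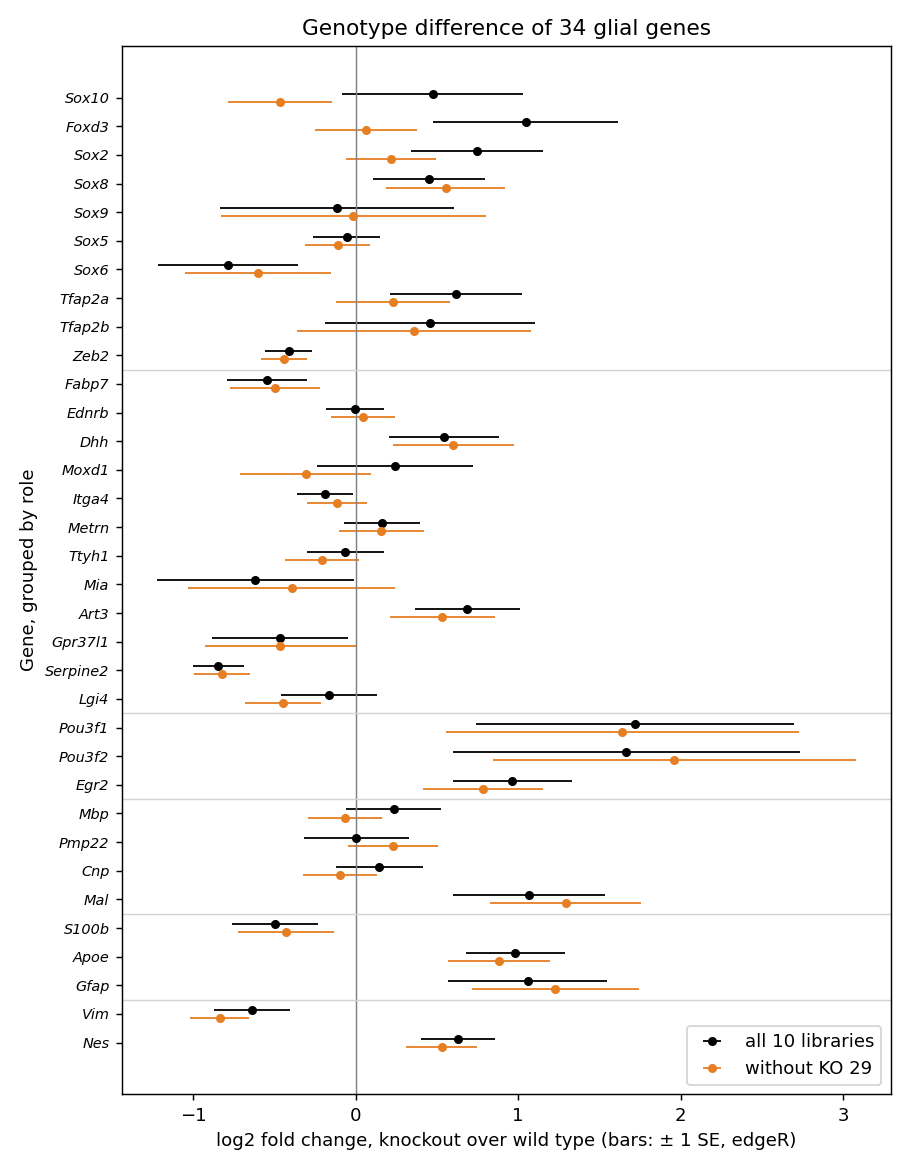
Log2 fold change, knockout over wild type, of each of the 34 genes from all 10 libraries and without knockout 29, with bars of 1 SE. Serpine2 is the member called with all libraries, and Sox10, Foxd3, Sox2 and Moxd1 move farthest toward or past 0 without knockout 29.

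The 22 other peripheral glial genes, of which 20 could be tested (Olig1 and Pmp2 lay below the count filter), had no member called by edgeR or DESeq2, and 5 (25.0%, 3 higher and 2 lower) passed at an unadjusted p under 0.05 in edgeR, beside 13.1% of all genes. Of the 20, 13 had positive and 7 negative estimates, with a median log2 fold change of 0.32. Erbb3, the neuregulin co-receptor of Schwann cell precursors, was at 125, 459, 162, 189 and 207 CPM in knockout libraries 16, 29, 42, 49 and 50, and at 112, 164, 176, 179 and 123 CPM in wild-type libraries 22, 24, 32, 35 and 45 (log2 fold change 0.60, SE 0.32, adjusted p = 0.437, edgeR). Knockout 29 was again the highest, and the other knockouts overlapped the wild-type range. Cdh19, a cadherin of precursors, spanned 15.7 to 25.4 CPM in knockout and 20.2 to 43.2 CPM in wild type (log2 fold change -0.51). Slc1a3, a glutamate transporter of glia, was named after its values were seen, as the gene of this list with the largest absolute log2 fold change. It was at 125, 72.1, 122, 107 and 232 CPM in knockout libraries 16, 29, 42, 49 and 50, and at 74.6, 73.0, 44.4, 32.8 and 91.4 CPM in wild-type libraries 22, 24, 32, 35 and 45 (log2 fold change 1.06, SE 0.33, adjusted p = 0.224, edgeR). Knockout 29 was the lowest of the knockouts for Slc1a3, and the other 4 exceeded all wild-type values, a separation found for 2.0% of all genes without knockout 29.

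For the glial content of each library, the CPM of the 34 genes were summed. The sum was 4194, 9027, 4148, 3432 and 4820 CPM in knockout libraries 16, 29, 42, 49 and 50, and 4898, 6751, 5941, 6080 and 4553 CPM in wild-type libraries 22, 24, 32, 35 and 45. Knockout 29 was the highest of all, knockout 50 lay inside the wild-type range, and the other 3 knockouts lay below every wild-type library. The mean was 5124 ± 2236 CPM in knockout and 5645 ± 902 CPM in wild type (SD, n = 5), and 4148 ± 568 CPM in knockout without library 29 (SD, n = 4). Without Sox10 the sum was 5263 CPM in knockout 29, 2784 to 3976 CPM in the other knockouts and 3980 to 5641 CPM in wild type. Vim has the largest share of that sum. Without the 10 members that other cell types also express (Vim, Nes, Sox9, Sox5, Sox6, Zeb2, Tfap2a, Tfap2b, Apoe and Serpine2), the sum was 2080, 5570, 2028, 1726 and 2515 CPM in the knockouts in the same order and 1787 to 3199 CPM in wild type. The groups then overlapped with or without knockout 29. The mean of this sum was 2784 ± 1583 CPM in knockout and 2548 ± 631 CPM in wild type (SD, n = 5), and 2087 ± 325 CPM in knockout without library 29 (SD, n = 4). The knockout mean was thus the higher only with library 29. This sum still holds Sox10, the value that chose that library. Sox10 made up 3764 of the 5570 CPM in knockout 29, against 390 to 844 CPM in the other knockouts and 573 to 1375 CPM in wild type. The excess of knockout 29 in this sum is therefore no result apart from its Sox10. The sum was not made without Sox10. A measure that weights genes equally, the median log2 CPM of the members, was 4.45 to 5.54 in knockout and 4.31 to 5.41 in wild type, with means of 4.97 ± 0.51 and 4.83 ± 0.49 (SD, n = 5). The difference of 0.15 fell to 0.01 without knockout 29, and both were smaller than the spread within either group. Over the 24 members left without those 10, the difference was 0.38 (SD 0.49 in knockout and 0.35 in wild type), and 0.25 without knockout 29. No test was made on these summaries, since the members were chosen with results known.

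For maturity, the median log2 CPM of 9 genes of the early stages (Sox10, Foxd3, Sox2, Fabp7, Ednrb, Moxd1, Itga4, Tfap2a and Nes) was subtracted from that of 9 later genes (Pou3f1, Egr2, Mbp, Pmp22, Cnp, Mal, S100b, Gfap and Apoe). The difference was -1.44, -3.37, -1.95, -2.90 and -2.31 in knockout libraries 16, 29, 42, 49 and 50, and -3.39, -1.87, -2.44, -2.503 and -2.45 in wild-type libraries 22, 24, 32, 35 and 45. The early median thus stood above the later one in every library. This alone does not mark immature glia, since satellite glia also express Fabp7 and Sox10 acts at every stage. A median of 9 genes is the value of its middle gene, and the middle later gene differed between libraries. It was S100b in every wild type, Mal in knockouts 42, 49 and 50, Pou3f1 in knockout 16 and Egr2 in knockout 29. The group means that follow thus compare different later genes. The mean difference was -2.39 ± 0.76 in knockout and -2.53 ± 0.55 in wild type (SD, n = 5), and -2.15 ± 0.61 in knockout without library 29 (SD, n = 4). The groups differed by 0.14 with that library and 0.38 without it, both less than 1 SD of either group. Knockout 29 had the highest early median (7.03, against 5.94 to 6.70 in the other knockouts and 6.14 to 6.40 in wild type), while its later median of 3.66 lay among those of the other libraries. By this measure knockout 29 was the lowest of the knockouts, close to wild type 22, and knockout 16 was the highest of the 10 libraries. The later median of knockout 16 was Pou3f1 (22.6 CPM), and the next lower later gene was S100b (7.79 CPM). In knockout 29 the early and later medians were Sox2 (131 CPM) and Egr2 (12.6 CPM). This order of libraries therefore rested on single genes and does not rank the maturity of their glia. Among the later genes 8 of 9 had positive and among the early genes 6 of 9 had positive estimates, with median log2 fold changes of 0.96 and 0.47, and none of these 18 genes passed the adjusted test. Without knockout 29 the early genes Sox10 and Moxd1 turned negative (-0.46 and -0.31), Ednrb turned positive (0.04) and Foxd3 fell to 0.06. The later genes Mbp and Cnp turned negative (-0.07 and -0.10).

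Knockout 29 was the highest of the 10 libraries for 13 of the 34 genes (38.2%), beside 20.9% of all genes tested. With the GC adjustment the count was 15 (44.1%) beside 17.3%. It differed by at least 2-fold from the median of the other knockout libraries in 15 members (44.1%) beside 20.1%. Sox10 is among the members in each of these counts, and its place there draws on the value that singled out the library. Knockout 29 was 3.45 times the mean of the other knockouts for Moxd1, 3.36 for Sox2, 2.71 for Tfap2a and 2.69 for Erbb3. It was 0.939 for Ednrb, 0.392 for Pmp22 and 0.381 for Mal. With the GC adjustment knockout 29 was the highest of the 10 libraries for Ednrb (356 CPM). Pmp22 and Mal stayed below the median of the other knockouts after it (log2 differences -1.08 and -1.225). The excess was thus not shared by all members. The summed neuronal markers were also highest in knockout 29 (13420 CPM). The depth, the GC trend and the neuronal sum all moved with this library, and their part in its glial values was not tested beyond the GC adjustment given above.

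**Figure D5:**
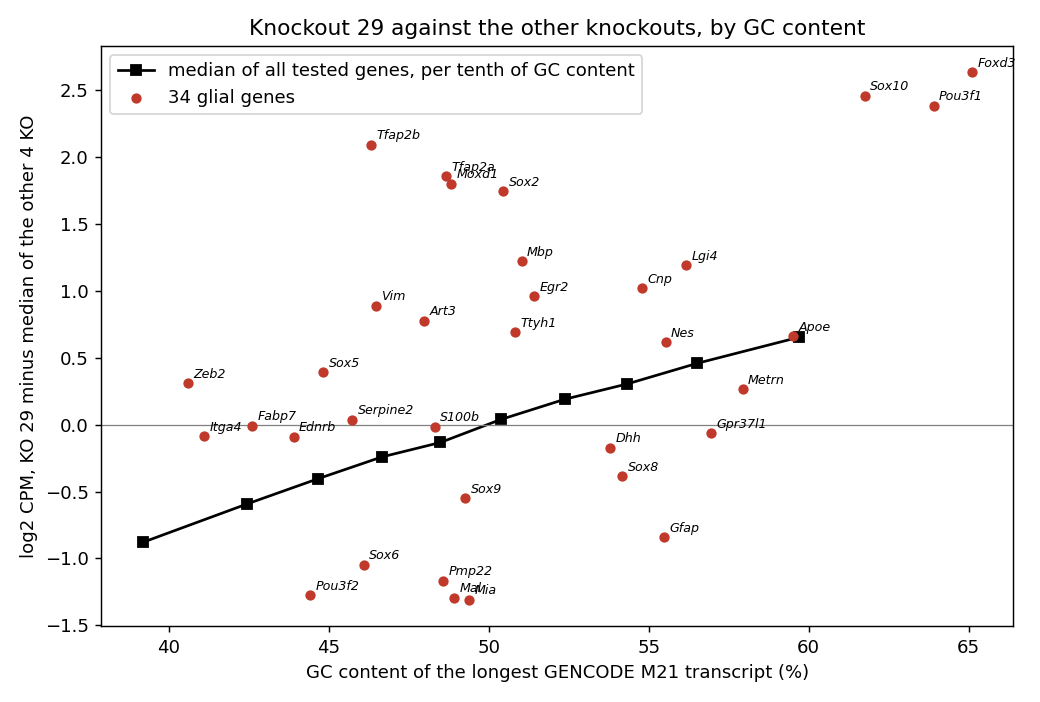
Log2 difference between knockout 29 and the other knockout libraries against the GC content of the longest transcript in percent, for the median of each of 10 equal bins of genes and for each member. The bins rise from -0.88 to 0.65, and Sox10, Foxd3, Sox2 and Moxd1 lie above that line while Mal and Pmp22 lie below it.

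Ordered by level per length in wild type (mean CPM divided by transcript length in kilobases), the members spanned from Vim at 797 to Gfap at 0.178 CPM per kilobase. Fabp7 followed Vim at 732, and the ranges of these neighbours over the 5 libraries overlapped. Sox10 came next at 330.2 CPM per kilobase (206 to 495), below every wild-type value of Fabp7 (519 to 949.5). Apoe was at 112, Ednrb at 67.7 and Serpine2 at 62.2 CPM per kilobase. The highest Apoe value lay below the lowest of Sox10, whereas Apoe, Ednrb and Serpine2 overlapped with their neighbours in this order. Among the lower members, Mbp was at 12.2, Egr2 at 1.39 and Pou3f1 at 0.600 CPM per kilobase. The 5 lowest of the 34 were Dhh, Mia, Pou3f1, Gpr37l1 and Gfap.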

How the data were processed

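Total RNA of 10 trigeminal ganglion samples was sequenced, 5 per genotype, and grouped by the genotype label. Each deposited file holds raw counts per gene for 55414 Ensembl identifiers. The submitters' processing notes list featureCounts 1.5.0-p1, the aligner STAR 2.7.10a, bcl2fastq 2.20.0.422 and, with no role, the builds mm10 and GRCm39. Not given in the sources used here are the strandedness, the gene annotation and how reads with several matches were counted, so reads of overlapping or near-identical genes may be assigned to either. No genome coordinates are therefore given, and neighbours were taken from the order of RefSeq genes on GRCm38.p6.

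Symbols were matched to 52081 identifiers. Counts were filtered with filterByExpr (minimum count 10), scaled with TMM and tested with the quasi-likelihood test of edgeR 4.0.16 in R 4.3.3, with both groups of 5 and no covariate. P-values were adjusted by Benjamini-Hochberg over 18005 genes, with a threshold of 0.05. The standard error of a log2 fold change was taken from the F statistic, and log2 CPM used a prior count of 2. The code was tested on simulated data. No pair of libraries of 1 group agreed within sampling noise, and none was merged. The alternatives were DESeq2 1.42.0, RLE and upper-quartile factors, no filter on low counts, leaving out each library, and leaving out wild types 32 and 35, or knockouts 29 and 49, together. Offsets that remove each library's trend over GC content (a lowess curve with a span of 0.3 over 17947 genes with a GENCODE M21 transcript; other genes were set at the median GC content) were added after seeing the data.

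The 34 genes and all lists were chosen with earlier results of these data known, and a few other glial genes are not reported here. Values in every library are given for Sox10, for each member called, and in each role group for the 2 members with the largest absolute log2 fold change and the 2 with the highest mean CPM. Vim and the other broadly expressed members are not specific to glia. Depth ranged from 3258008 to 33556002 counts per library.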

Additional observations from a re-analysis of the deposited data

Results flagged for a closer look

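In 13 of 78 sets of 5 libraries tested (16.7%), 1 library lay farther from the rest of its group than Dixon's 95% limit allows. That limit flags about 1 in 20 sets of normally distributed values. Gene levels were checked here as CPM without logs, which are skewed, and the sets share libraries. The share flagged therefore cannot be set against 1 in 20, and the check was not repeated on log2 CPM of the genes. Knockout 29 gave 9 of the 13. Among the knockout libraries it stood apart for Sox10 (3764 CPM), Foxd3 (93.6 CPM), Sox2 (131 CPM), Moxd1 (86.8 CPM), Lgi4 (24.1 CPM), Mbp (125 CPM), Cnp (127 CPM), Erbb3 (459 CPM) and the summed CPM of the 34 genes (9027 CPM). In the other 4 cases, knockout 16 stood apart for Pou3f2 (77.9 CPM), knockout 50 for Itga4 (104 CPM), and wild type 24 for Moxd1 (70.6 CPM) and Pou3f1 (7.42 CPM). Knockout 29 was singled out for its Sox10, so its flags for Sox10 and for the sum that includes Sox10 draw on the value that chose it.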

How the results depend on the processing

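Under 17 alternatives, 21 of the 34 genes kept the direction of their log2 fold change in all 17 and 13 reversed in some, and 2 (Serpine2 and Apoe) were called in at least 1. The count of members called lower was 1 with all libraries under TMM, DESeq2 and upper-quartile factors, and 0 under RLE factors, with no filter on low counts, without wild types 32 and 35, without knockouts 29 and 49, and with GC-adjusted offsets. It was 0 to 0 when any 1 library was left out. The count called higher was 1 under DESeq2 (Apoe) and 0 to 0 when any 1 library was left out. Over all genes, 17 were called higher and 67 lower, against 350 and 245 with DESeq2, 55 and 102 with no filter, 6 and 47 without knockouts 29 and 49, 0 and 19 without wild types 32 and 35, and 2 to 35 and 27 to 88 when 1 library was left out. The call of Prdm12 was lost without knockout 49, without knockout 50 and without wild types 32 and 35 (edgeR adjusted p = 0.0561, 0.0616 and 0.110).

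Reversed log2 fold changes were, for Ednrb, 0.0403 with DESeq2, 0.049 with RLE, 0.00803 with upper-quartile factors, 0.12 without wild types 32 and 35, 0.10 without knockouts 29 and 49 and 0.18 with GC-adjusted offsets. Those for Sox5 were 0.00058 with RLE and 0.12 with GC-adjusted offsets, which also gave 0.0692 for Itga4. Without wild types 32 and 35 they were -0.0943 for Moxd1, 0.0505 for Itga4, 0.19 for Ttyh1, 0.00849 for Lgi4 and -0.21 for Pmp22. Without knockouts 29 and 49 they were -0.49 for Sox10, -0.30 for Moxd1, -0.0906 for Mbp and -0.0876 for Cnp. Leaving out 1 library gave ranges across 0 of -0.46 to 0.70 for Sox10, -0.40 to 0.26 for Sox9, -0.18 to 0.0505 for Sox5, -0.44 to 0.74 for Tfap2b, -0.10 to 0.14 for Ednrb, -0.31 to 0.83 for Moxd1, -0.20 to 0.0716 for Ttyh1, -0.18 to 2.34 for Pou3f2, -0.0655 to 0.39 for Mbp, -0.29 to 0.23 for Pmp22 and -0.10 to 0.37 for Cnp. The causes were not tested. The content difference in median log2 CPM (0.15) and the maturity difference (0.14) moved by less than the pooled SD of the libraries in each alternative run on them, but their sign was not stable. Content was -0.21 as the log2 of the sum, -0.19 without wild types 32 and 35, and 0.0065 to 0.29 when 1 library was left out. Maturity was -0.10 to 0.38 when 1 library was left out, and 0.63 without knockouts 29 and 49, above the pooled SD of 0.49. The difference in summed CPM went from -521 to -1496 without knockout 29, a move larger than the wild-type SD of 902. No paired analysis was possible because the groups share no replicate number. The depth of knockout 49 limits what can be said of Mia, Gpr37l1 and Gfap.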
